A study of Mus musculus with 6 samples.

Results

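Neutrophil granule genes were followed in single-nucleus transcriptomes of early T-cell progenitors that had been returned to culture, as 9 of the 28048 genes in the count tables. They were taken by symbol: 4 primary granule genes, Mpo, Prtn3, Elane and Ctsg, and 5 genes expressed later in neutrophil maturation, S100a8, S100a9, Ngp, Camp and Ltf. Their unique molecular identifiers (UMIs, 1 per captured transcript) were summed per library and per reverse-transcription well over cells that had 200 genes or more, no more than 2000 UMIs and a mitochondrial share of up to 30%, and were scaled to CPM, the UMIs per 1000000 UMIs of the library. The mice were C57BL/6 animals, both sexes combined and several pooled, in which both copies of Bcl11b carried a yellow fluorescent protein; WT animals had the intact timing enhancer of this T-cell commitment gene, and ΔTE animals (labelled Del_TE) had it deleted, so the controls also bore the reporter. No age was given in the labels. Progenitors grown from bone marrow were sorted at 3 starts, all positive for CD44: DN1 lacked CD25, DN2a had CD25 but no Bcl11b reporter signal, and DN2b had both. They were sorted after exclusion of lineage-marked cells, a panel that included the myeloid markers CD11b and Gr-1, and were cultured for 4 days on OP9-DL1, a mouse bone marrow stromal line that displays a Notch ligand, with cytokines. Each of the 6 combinations of genotype and start was 1 library of 3 wells, so no condition had a replicate. Intervals are exact 95% intervals for counting error, and no p-value was computed. Those on UMIs take each UMI as independent, so they are too narrow where many UMIs lie in few cells, as for the later genes.

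Neutrophils carry their antimicrobial proteins in granules that are filled in a fixed order as the cell matures. The primary, or azurophil, granules are loaded first, in promyelocytes and their granulocyte-monocyte precursors, with myeloperoxidase (Mpo), which makes hypochlorous acid, and with the serine proteases proteinase 3 (Prtn3), neutrophil elastase (Elane) and cathepsin G (Ctsg). The secondary granule proteins lactoferrin (Ltf), which binds iron, cathelicidin (Camp), an antimicrobial peptide precursor, and neutrophilic granule protein (Ngp) follow at the myelocyte stage, when the cytosolic calcium-binding pair S100a8 and S100a9 (calprotectin) also accumulates. Primary granule transcripts are low but detectable in multipotent progenitors with myeloid potential, whereas the later genes are largely a property of maturing granulocytes and, for S100a8 and S100a9, of monocytes.

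By Ensembl identifier, 99.6% of the genes in the tables were found in the GENCODE annotation of GRCm38; the submitters' processing notes name mm9, so positions here are those of GRCm38 and were used for description alone. Prtn3 (chr10:79874476-79883174) and Elane (chr10:79886247-79888215) are neighbouring genes on chromosome 10, 3.07 kb apart. S100a8 (chr3:90668978-90670035) and S100a9 (chr3:90692632-90695721) lie 22.6 kb apart on chromosome 3 in opposite orientation. Camp, Ngp and Ltf all lie on chromosome 9, with Ngp 570 kb from Camp and 596 kb from Ltf, whereas Mpo is on chromosome 11 and Ctsg on chromosome 14.

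The 250 bases before the start of each gene were read from RefSeq (GRCm38.p6), which held all 9 genes, and searched on both strands for short forms of the sites of 4 factors of myeloid cells. The letters TTGCNNAA (C/EBP factors) stood before 3 of the 9 genes, all of them later genes (S100a9, Ngp and Ltf), and before 9.56% of 32851 promoters. The letters AGGAAG (PU.1, the product of Spi1) stood before 7 genes, including all 4 primary granule genes, and before 29.5% of promoters. The letters TGTGGT (Runx factors) stood before Ctsg and S100a9 and before 14.0% of promoters, and AACTG (Myb) before 5 genes and 39.1% of promoters. None of the 26 matches in the 9 genes overlapped another. The sequences that follow run 5′ to 3′ on the strand of the gene and end at the base before its RefSeq start, which for Mpo and Ngp lies inside the GENCODE gene. They are those of 2 primary granule genes that behaved differently between starts (Mpo and Ctsg), and of 2 later genes that behaved differently between genotypes (S100a9 and Ngp). Capitals mark the C/EBP and PU.1 letters.
Mpo, chr11:87793534-87793783, plus strand: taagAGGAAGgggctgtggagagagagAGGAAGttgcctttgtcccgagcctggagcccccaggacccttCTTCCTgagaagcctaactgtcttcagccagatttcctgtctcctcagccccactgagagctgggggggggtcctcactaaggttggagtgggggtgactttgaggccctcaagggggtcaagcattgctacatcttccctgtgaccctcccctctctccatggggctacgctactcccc
Ctsg, chr14:56102575-56102824, minus strand: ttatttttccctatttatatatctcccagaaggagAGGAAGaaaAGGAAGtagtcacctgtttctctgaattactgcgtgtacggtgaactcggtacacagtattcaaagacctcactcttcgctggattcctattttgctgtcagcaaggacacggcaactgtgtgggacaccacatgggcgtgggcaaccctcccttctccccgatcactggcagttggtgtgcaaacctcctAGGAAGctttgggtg
S100a9, chr3:90695722-90695971, minus strand: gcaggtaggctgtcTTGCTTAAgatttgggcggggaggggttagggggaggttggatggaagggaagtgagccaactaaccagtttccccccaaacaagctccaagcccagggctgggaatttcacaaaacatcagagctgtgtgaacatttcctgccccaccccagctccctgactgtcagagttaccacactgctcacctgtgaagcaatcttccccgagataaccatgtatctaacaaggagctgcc
Ngp, chr9:110419558-110419807, plus strand: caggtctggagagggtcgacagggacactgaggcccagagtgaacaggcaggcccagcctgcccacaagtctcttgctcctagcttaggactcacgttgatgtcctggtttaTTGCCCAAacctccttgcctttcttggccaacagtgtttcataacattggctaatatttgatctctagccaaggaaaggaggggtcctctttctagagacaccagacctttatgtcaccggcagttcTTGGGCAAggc
The Mpo and Ctsg windows each held 3 PU.1 matches and no C/EBP match, the S100a9 window held 1 C/EBP match, from 236 to 229 bases before the start, and the Ngp window held 2, from 138 to 131 and from 11 to 4 bases before it.

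The filters kept 60671 cells of 1170130 barcodes, from 3401 to 19489 per library, and no barcode was shared between libraries. Kept cells held 1717136 to 9048728 UMIs per library and a median of 386 to 485 UMIs. Bcl11b, the gene under the deleted enhancer, stood at 235, 535 and 856 CPM in the WT DN1, DN2a and DN2b libraries and at 89.4, 256 and 540 CPM in the ΔTE ones. The sum of 7 stromal genes moved with the start, at 438 and 252 CPM in the WT and ΔTE DN1 libraries against 2034 and 1286 CPM in the DN2a libraries. The WT DN2a library stood apart in the median mitochondrial share of a cell, 13.3% against 20.9% to 23.9% in the other 5. Their part in the results below was not tested. In summed libraries, fewer cells of a type and less RNA per cell cannot be told apart.

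Granule transcripts were found mainly in the cultures started from DN1 progenitors. The 9 genes gave 4509 UMIs in kept cells, 3517 of primary granule genes and 992 of later genes. The DN1 libraries held 69.2% of the primary UMIs and 96.3% of the later UMIs, against 37.5% of all UMIs. Camp gave 8 UMIs in all and did not reach the minimum of 15 cells that 13599 genes of the series and the 8 other members reached.

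Mpo was highest after the DN1 start and fell at each later start in both genotypes. Its level was 161 CPM in the WT DN1 library (964 UMIs; 155 to 166 over the 3 wells), 29.1 CPM in the WT DN2a library (263 UMIs) and 10.6 CPM in the WT DN2b library (29 UMIs). In ΔTE cultures it was 97.4 CPM (574 UMIs; 88.1 to 104 over the wells), 22.2 CPM (140 UMIs) and 2.91 CPM (5 UMIs). Every well of a DN1 library lay above every well of the DN2a library of its genotype, and likewise for DN2a above DN2b. In WT the log2 ratio of DN1 to DN2a was 2.47 (2.27 to 2.67) and that of DN2a to DN2b 1.45 (0.90 to 2.06). The same ratios in ΔTE were 2.14 (1.87 to 2.41) and 2.93 (1.67 to 4.57).

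Prtn3 followed Mpo. It stood at 32.7, 6.64 and 2.20 CPM in the WT DN1, DN2a and DN2b libraries (196, 60 and 6 UMIs) and at 27.8, 5.38 and 1.17 CPM in the ΔTE libraries (164, 34 and 2 UMIs). From DN2a to DN1 it was higher by a log2 ratio of 2.30 (1.88 to 2.74) in WT cultures and 2.37 (1.83 to 2.95) in ΔTE cultures, and the odds of a Prtn3 against an Mpo UMI did not differ between these starts beyond counting error (log2 odds ratio -0.17, -0.64 to 0.32, in WT). The wells of the DN1 and DN2a libraries did not overlap in either genotype.

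Elane, the third protease of the primary granule, was found almost only in the DN1 libraries. It gave 56 UMIs (9.35 CPM) in WT DN1 and 18 UMIs (3.05 CPM) in ΔTE DN1, 1 UMI in each DN2a library and 0 in both DN2b libraries, where a count of 0 allows up to 1.10 CPM in WT and 1.75 CPM in ΔTE. The DN1 to DN2a log2 ratio was 6.40 in WT, with a lower bound of 3.86, and 4.27 in ΔTE, with a lower bound of 1.61. The odds of an Elane against an Mpo UMI were higher after the DN1 start in WT (log2 odds ratio 3.93, 1.38 to 9.27), while the interval in ΔTE spanned 0 (2.13, -0.55 to 7.53).

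Ctsg differed from the other primary granule genes and fell far less across the starts. It stood at 41.4, 26.9 and 19.8 CPM in the WT DN1, DN2a and DN2b libraries (248, 243 and 54 UMIs) and at 36.5, 32.9 and 21 CPM in the ΔTE libraries (215, 208 and 36 UMIs). In WT the DN1 wells (37.5 to 48.8 CPM) lay above the DN2a wells (23.7 to 32.8 CPM), with a log2 ratio of 0.62 (0.36 to 0.88). In ΔTE the wells overlapped and the log2 ratio of 0.15 did not differ from 0 beyond counting error (-0.13 to 0.43). From DN2a to DN2b its level was lower by log2 ratios of 0.44 (0.01 to 0.90) in WT and 0.65 (0.13 to 1.20) in ΔTE, with overlapping wells. The odds of a Ctsg against an Mpo UMI were lower after the DN1 than after the DN2a start by log2 odds ratios of -1.84 (-2.18 to -1.51) in WT and -1.99 (-2.38 to -1.59) in ΔTE. Ctsg made up 16.9% of the primary UMIs of the WT DN1 library, 42.9% of those of WT DN2a and 60.7% of those of WT DN2b, and 22.1%, 54.3% and 83.7% of those of the ΔTE libraries in the same order.

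**Figure D1:**
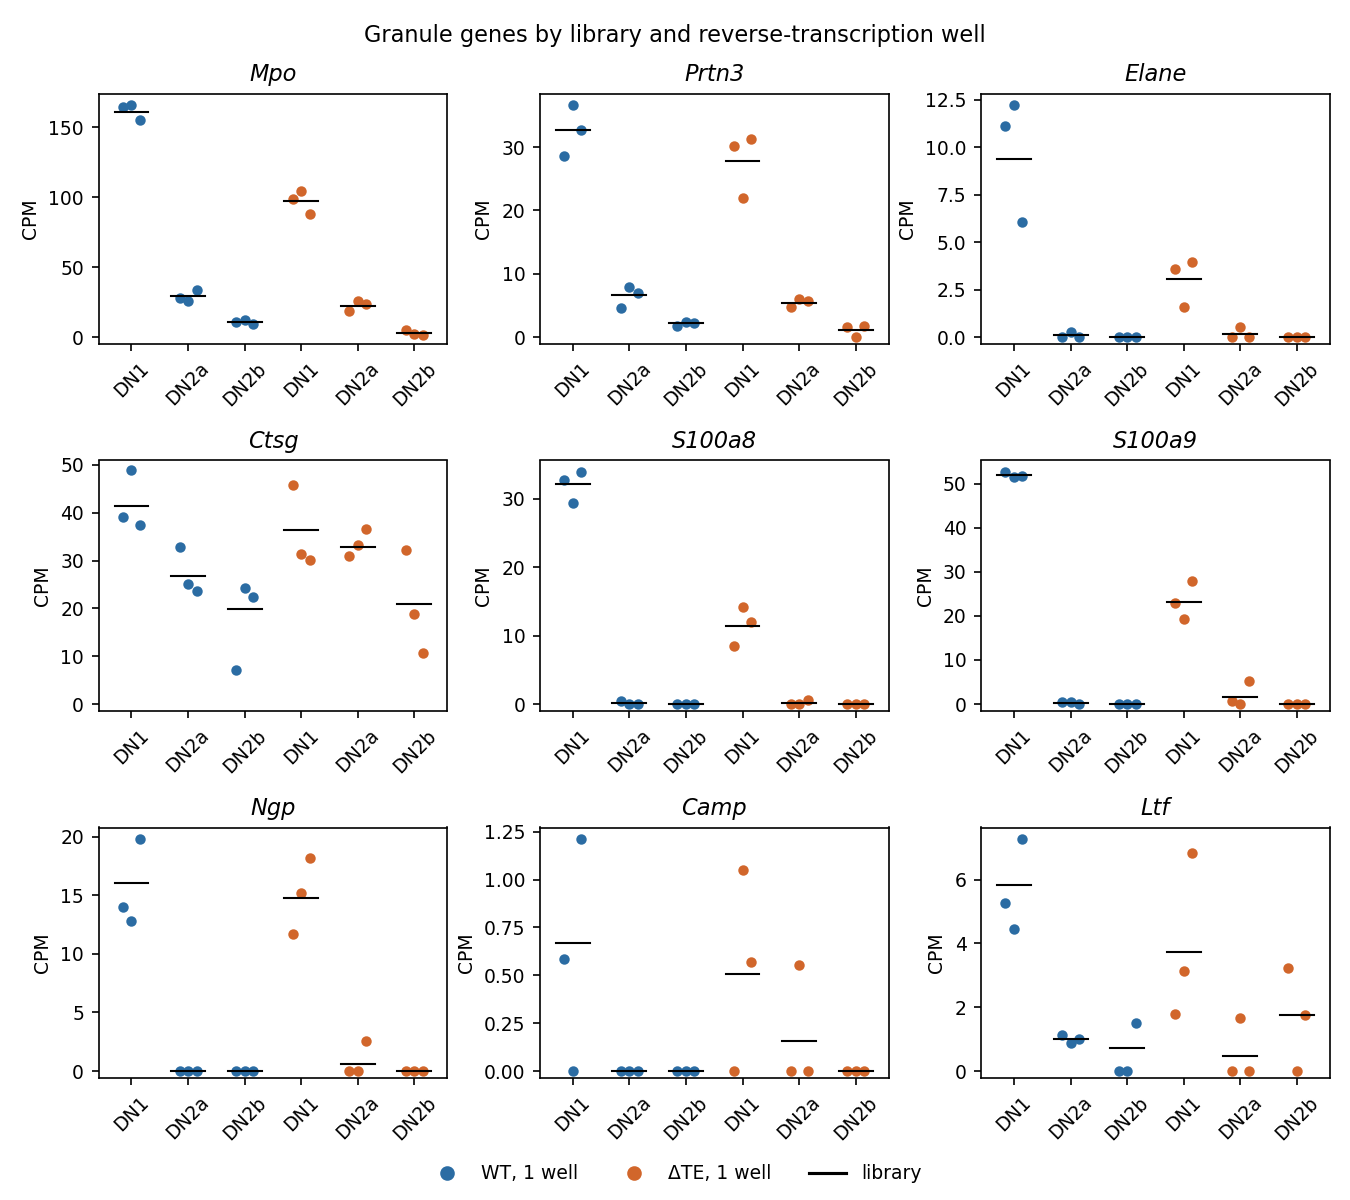
CPM of each of the 9 genes in the 6 libraries; points are the 3 reverse-transcription wells of a library, which are not biological replicates, and lines are the whole library. Ctsg stood at 26.9 and 32.9 CPM in the WT and ΔTE DN2a libraries, where S100a8, S100a9 and Ngp were at or near 0 in nearly every well.

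The later genes gave few UMIs outside the DN1 libraries. S100a9 gave 311 UMIs (51.9 CPM; 51.6 to 52.6 over the wells) in WT DN1 and 137 UMIs (23.2 CPM; 19.4 to 27.8) in ΔTE DN1, then 3 and 10 UMIs in the WT and ΔTE DN2a libraries and 0 in both DN2b libraries. S100a8 gave 193 and 67 UMIs (32.2 and 11.4 CPM) in the WT and ΔTE DN1 libraries, 1 UMI in each DN2a library and 0 in both DN2b libraries. The DN1 to DN2a log2 ratio in WT was 7.29 (5.73 to 9.58) for S100a9 and 8.19 (5.69 to 13.5) for S100a8, and in ΔTE it was 3.88 (2.95 to 4.97) and 6.17 (3.64 to 11.5). No DN1 well of either gene overlapped a DN2a well of its genotype.

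The secondary granule genes were sparser, and Ngp and Ltf were likewise highest after the DN1 start. Ngp gave 96 UMIs (16.0 CPM) in WT DN1 and 87 UMIs (14.8 CPM) in ΔTE DN1, and 0 and 4 UMIs in the DN2a libraries. With the 0 set to 3 UMIs, Ngp was 48.3-fold higher in WT DN1 than in WT DN2a, a value without an interval. In ΔTE the log2 ratio was 4.54 (3.13 to 6.45). Ltf gave 35, 9 and 2 UMIs in the WT DN1, DN2a and DN2b libraries and 22, 3 and 3 UMIs in the ΔTE ones, with a DN1 to DN2a log2 ratio of 2.55 (1.47 to 3.80) in WT and 2.97 (1.24 to 5.36) in ΔTE. Camp gave 4 and 3 UMIs in the DN1 libraries and 1 UMI elsewhere, too few for a comparison. Outside the DN1 libraries Ltf made up 9 of the 13 later UMIs of WT DN2a and all 2 and 3 later UMIs of the WT and ΔTE DN2b libraries, but 3 of 19 in ΔTE DN2a, where S100a9 gave 10.

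Summed, the primary granule genes stood at 244, 62.7 and 32.6 CPM in the WT DN1, DN2a and DN2b libraries and at 165, 60.6 and 25.1 CPM in the ΔTE libraries. The later genes stood at 107, 1.44 and 0.733 CPM in WT and 53.6, 3.01 and 1.75 CPM in ΔTE. From DN2a to DN1 the primary sum was thus 3.90-fold higher in WT (log2 1.96, 1.82 to 2.10) and 2.72-fold higher in ΔTE (log2 1.44, 1.27 to 1.62), and the later sum 74.2-fold higher in WT (log2 6.21, 5.43 to 7.13) and 17.8-fold higher in ΔTE (log2 4.16, 3.49 to 4.91). Without Mpo the WT primary ratio was 1.31 on the log2 scale and the ΔTE one 0.81, and without S100a8 and S100a9 the later ratio was 4.50 in WT and 3.91 in ΔTE. The odds of a later against a primary UMI, in which library totals cancel, differed between these starts by a log2 odds ratio of 4.25 (3.45 to 5.18) in WT and 2.71 (2.02 to 3.49) in ΔTE. Later genes were 30.4% of the member UMIs of WT DN1 (28.4 to 32.4) against 2.24% in WT DN2a (1.20 to 3.80), and 24.6% against 4.73% in ΔTE. In the ΔTE DN2a library 13 of the 19 later UMIs came from 1 cell, and without it the ΔTE log2 ratio of the later sum was 5.82 in place of 4.16.

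Of the 9 members, 7 held at least 50 UMIs in the WT DN1 and DN2a libraries together, and 6 of these, all but Ctsg, were at least 2-fold higher after the DN1 start. Over the 10868 genes that reached that minimum 0.975% were, 8.43% were at least 2-fold lower, and the median log2 ratio was -0.15. In ΔTE 5 of 6 members were at least 2-fold higher, against 1.31% of 10351 genes, and 5.09% were lower. In each genotype 4 of the members reached the minimum through the DN1 library and so had to be higher there, though not of need by 2-fold, and these counts support nothing by themselves. Between DN2a and DN2b 2 of 3 members in WT (7.11% of genes) and 1 of 2 in ΔTE (5.47%) were at least 2-fold higher after the DN2a start, each through its DN2a count. No member was at least 2-fold lower (0.37% and 1.02% of genes). The primary sum fell from DN2a to DN2b by 0.94 (0.62 to 1.28) on the log2 scale in WT and by 1.28 (0.82 to 1.77) in ΔTE, and the 13 against 2 and 19 against 3 UMIs of the later sum allowed no comparison.

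**Figure D2:**
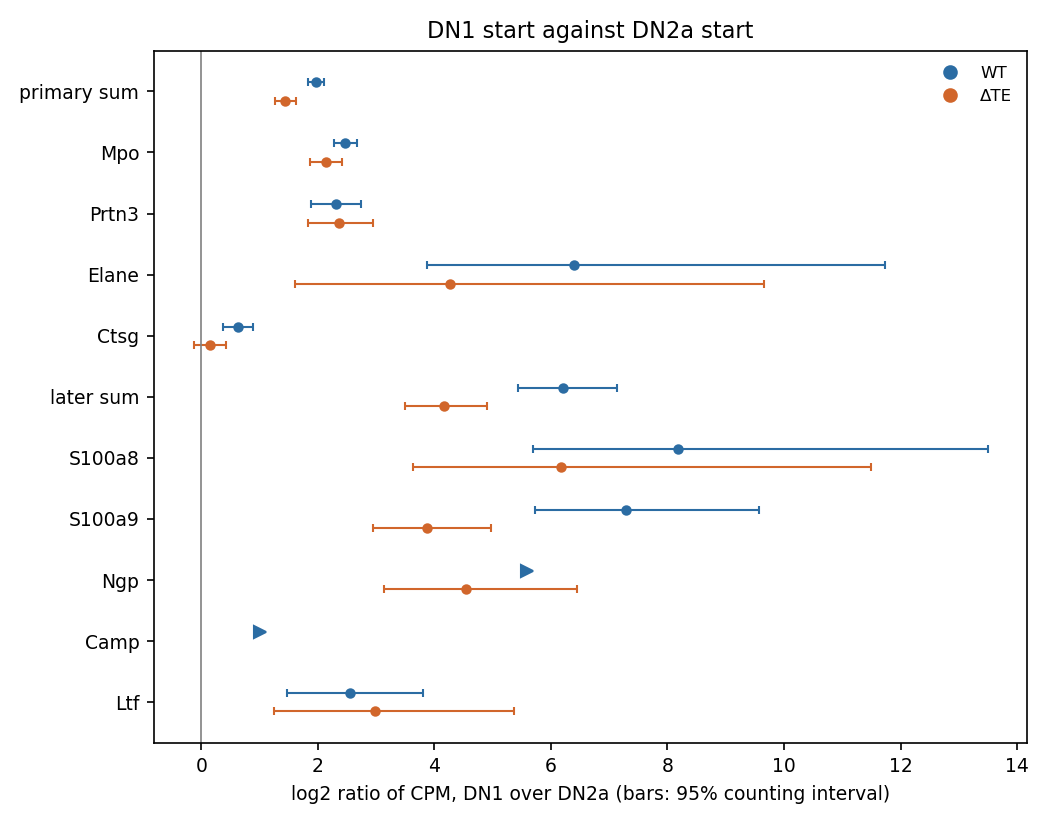
Log2 ratio of CPM, DN1 over DN2a start, for each gene and both sums in WT and ΔTE. Bars are 95% counting intervals, and triangles are values with a count of 0 set to 3 UMIs, without an interval. Among the primary granule genes Mpo and Prtn3 lie between 2.14 and 2.47 and Ctsg at 0.62 and 0.15, while the sums of the later genes lie at 6.21 and 4.16.

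How the UMIs were spread over cells differed between the sets. Primary UMIs were mostly found singly: 6.74% of WT DN1 cells and 2.43% of WT DN2a cells held exactly 1, and 972 of the 1464 primary UMIs of WT DN1 lay in cells with 1 or 2. Cells with at least 3 primary UMIs numbered 97 (0.888%) in WT DN1 and 33 (0.321%) in ΔTE DN1, against 4 and 5 in the DN2a libraries. Both layers were higher after the DN1 start: in WT the UMIs in cells with at least 3 were higher by a log2 ratio of 5.14 (4.52 to 5.85), and those in cells with 1 or 2 by 1.43 (1.27 to 1.58). Later UMIs were concentrated, with 70.0% of those in WT DN1 in 51 cells (0.467%) and 79.1% of those in ΔTE DN1 in 22 cells (0.214%), and up to 60 in 1 cell.

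The make-up of the 2 layers was not the same. In WT DN1, Ctsg made up 6.91% (4.83 to 9.52) of the primary UMIs in cells with at least 3 and 22.0% (19.4 to 24.8) of those in cells with 1 or 2, while Elane made up 8.33% (6.05 to 11.1) and 1.54% (0.87 to 2.53). Mpo made up 66.1% and 65.7%, with overlapping intervals. In ΔTE DN1 the shares ran the same way, 8.24% and 25.3% for Ctsg and 7.69% and 0.51% for Elane. Since the number of primary UMIs chose these cells, the shares describe the sum and are not independent of it.

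**Figure D3:**
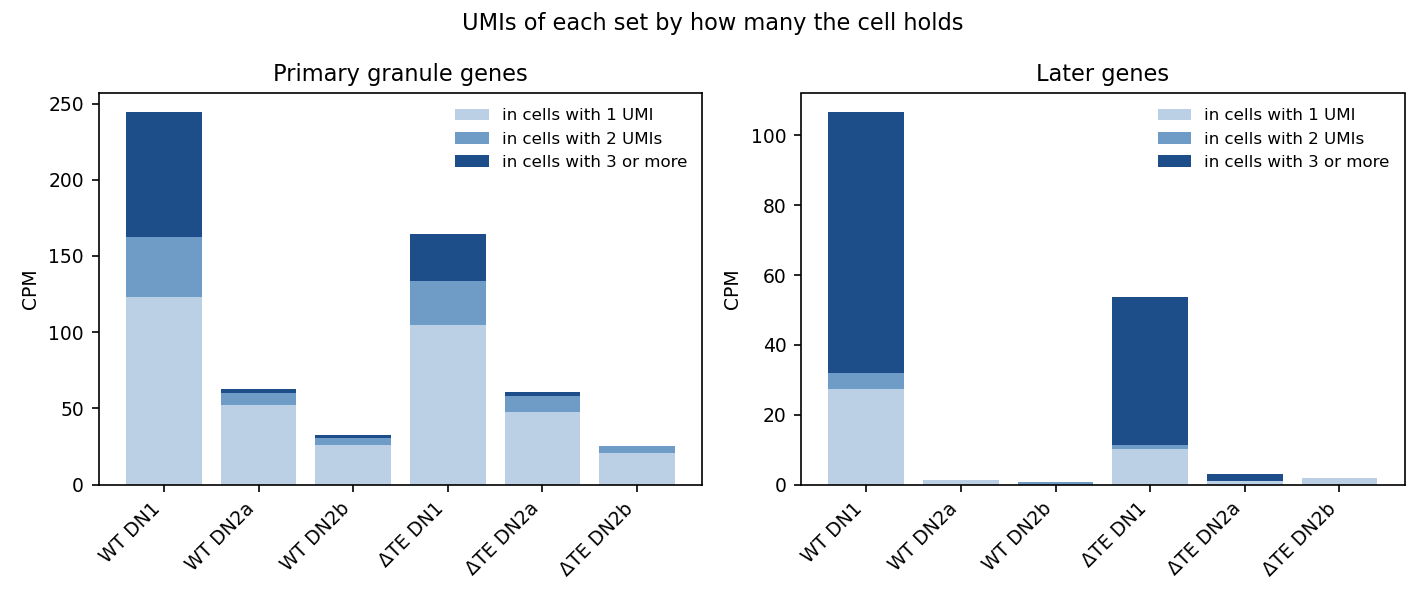
CPM of the primary granule genes (left) and of the later genes (right) in each library, stacked by whether the cell held 1, 2, or 3 or more UMIs of the set; bars start at 0. Cells with 3 or more held 33.6% of the primary UMIs of WT DN1 and 18.7% of those of ΔTE DN1, but 70.0% and 79.1% of the later UMIs.

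Shares of cells with a UMI were set beside cells that should lack these genes. Of WT DN1 cells 8.70% (8.18 to 9.25, median 462 UMIs) held a primary UMI. Among the 228 stromal cells, those with at least 3 stromal marker UMIs (median 641 UMIs), the share was 2.63% (0.97 to 5.64). T-lineage cells were non-stromal cells with any T-lineage marker UMI and no multipotent progenitor marker UMI. Among these 506 cells (median 512 UMIs) the share was 3.95% (2.43 to 6.04). Progenitor-marked cells were non-stromal cells with any progenitor marker UMI and no T-lineage marker UMI. Among these 3360 cells (median 534 UMIs) the share was 11.1% (10.1 to 12.2). In WT DN2a the shares were 2.64% of all cells, 1.10% of stromal, 1.24% of T-lineage and 4.23% of progenitor-marked cells. Primary UMIs, as a sum, were thus more frequent than in stromal cells at both starts in WT. In ΔTE DN1 the shares were 7.16% of all and 3.38% (1.11 to 7.71) of stromal cells. Prtn3 alone was not more frequent in WT DN2a, at 0.282% of all cells against 0.635% (0.317 to 1.13) of stromal cells. These held 12 of its 60 UMIs there, whereas in WT DN1 stromal cells held 0. The later sum was not more frequent than in stromal cells: 2.10% of WT DN1 cells held a later UMI, against 8.33% (5.09 to 12.7) of stromal cells, whose 22 later UMIs were mostly S100a9 (12) and S100a8 (7). In ΔTE DN1 the shares were 0.826% and 0.676%, the latter being 1 of 148 stromal cells and too few to compare. A single later UMI in a cell is therefore not read as expression, and the cells with at least 3 are described instead. The levels and ratios of whole libraries still count every UMI. Cells with 1 or 2 later UMIs held 115 S100a9 UMIs in WT DN1 and 30 in ΔTE DN1. Those with at least 3 held 196 and 107.

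Within the 21219 cells of the DN1 libraries, members of a set shared cells to different degrees. Mpo was found in 5.27% of these cells, but in 69.1% of the 55 cells with Elane and in 31.6% of the 291 cells with Prtn3, and in only 14.3% of the 420 cells with Ctsg. Prtn3 was found in 54.5% of the Elane cells and in 2.86% of the Ctsg cells, against 1.37% of all. Among the later genes, S100a9, found in 0.957% of cells, was in 61.8% of the 68 Ngp cells, 59.5% of the 37 Ltf cells and 45.4% of the 130 S100a8 cells. Cells with UMIs of both sets numbered 50 in WT DN1, where the product of the shares of the 2 sets gives 19.9, and 16 in ΔTE DN1, where it gives 6.09. In WT DN1 9 cells and in ΔTE DN1 2 cells held at least 3 UMIs of each set.

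Some other genes of granulocytes were higher in the cells that held several granule UMIs. Lists of other genes were compared between the 130 DN1 cells with at least 3 primary UMIs (median 543 UMIs) and the other DN1 cells (median 472 UMIs), and likewise for the 73 cells with at least 3 later UMIs (median 494 UMIs). A gene was counted as higher at a 2-fold difference with at least 5 UMIs in these cells, and as lower where at least 5 would have been found at the level of the other cells. By this rule 4.78% of 13570 genes were higher in the cells with at least 3 primary UMIs and 4.15% in those with at least 3 later UMIs, and of the genes that could be called lower 13.2% and 18.2% were. In the former 5 UMIs amount to 57.5 CPM and in the latter to 122 CPM. A gene more than 2-fold below that level in the other cells was called higher once it reached 5 UMIs. This held for the 5 receptors called in the former and the 9 genes of maturing neutrophils called in the latter. For them the call adds nothing to reaching 5 UMIs. In the cells with at least 3 primary UMIs, 5 of 8 cytokine receptors were higher and Cxcr4 was lower. The Cxcr4 value rested on 2 UMIs, and its interval held 0 (log2 -1.61, -4.66 to 0.25). Csf3r, the receptor for granulocyte colony-stimulating factor, stood at 207 against 5.77 CPM (log2 5.17, 4.33 to 5.93) and Il6ra, the interleukin 6 receptor, at 161 against 17.9 CPM, and both chains of the GM-CSF receptor, Csf2ra and Csf2rb, and the macrophage receptor Csf1r were higher too. Of 11 genes that accompany primary granules 4 were higher, among them Hk3, a myeloid hexokinase, at 115 against 3.82 CPM, and 1, Nkg7, was lower, whereas Calr, Srgn and Cst7 did not pass 2-fold. Ms4a3, a gene of granulocyte-monocyte progenitors named after its values were seen, gave 23 UMIs in these 130 cells and 23 in the other 21089. Of 10 granulocyte transcription factors 1 was higher, Spi1, at 184 against 69.2 CPM (log2 1.41, 0.60 to 2.12). The sum of the 10 did not differ beyond counting error (1934 against 1940 CPM). Runx1 (103 UMIs) and Myb (36 UMIs) made up most of the 168 UMIs of that sum in these cells, and neither differed beyond counting error. Cebpa (4 UMIs, log2 4.13, 2.17 to 5.63) and Cebpd (2 UMIs, log2 3.33, 0.21 to 5.32) fell short of the 5 UMIs needed.

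In the cells with at least 3 later UMIs, 9 of 21 genes of secondary granules and maturing neutrophils were higher, and none had UMIs enough to be called lower. Chil3, a chitinase-like protein, stood at 1022 against 0.676 CPM, Lcn2, lipocalin 2 of the secondary granule, at 608 against 1.10 CPM, and Cybb, the membrane subunit of the NADPH oxidase, at 949 against 18.2 CPM (log2 5.71, 5.18 to 6.21). The integrin chains Itgam (CD11b) and Itgb2, the peptidoglycan-binding Pglyrp1 and Anxa1 were also higher. The myeloid lysozyme Lyz2 was higher (998 against 43.1 CPM), as were Csf3r and Csf2ra, and Myb, a factor of immature progenitors, was lower (268 against 554 CPM; log2 -1.05, -2.05 to -0.21). No UMI was found of 4 of the 21 genes in these 73 cells. Of the same 21 genes 6 were higher in the cells with at least 3 primary UMIs, where 14 were detected.

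Markers of other cell types were counted in the same cells. Of 9 monocyte or macrophage genes, 3 were higher in the cells with at least 3 primary UMIs (Csf1r, Ly6c2 and Ms4a6c), and 1 in the cells with at least 3 later UMIs (Ly6c2). The sum of the list was 564 against 162 CPM in the former (log2 1.80, 1.36 to 2.21) and 584 against 164 CPM in the latter (1.84, 1.19 to 2.41), and its part in the results was not tested. The T-lineage list gave 4 UMIs in the former (46.0 against 129 CPM elsewhere) and 3 in the latter. Of 7 mast cell or basophil genes Mcpt8 was higher and Cpa3 lower in the former. Of 5 eosinophil genes Siglecf was higher in the former (5 UMIs), with an interval that held 0 (log2 1.47, -0.17 to 2.71). The granule genes of that lineage gave too few UMIs in any cells to be compared. The stromal list stood at 138 against 347 CPM in the former and at 170 against 347 CPM in the latter. The multipotent progenitor list stood at 771 against 782 CPM and at 389 against 784 CPM. In the former Lmo2 was higher and Cd34 and Bcl11a lower, and the Cd34 interval held 0. The ILC or NK list stood at 138 against 442 CPM and at 73.0 against 441 CPM. The erythroid list stood at 150 against 448 CPM and at 195 against 447 CPM. Dendritic cell genes gave 2 and 0 UMIs. The sort had excluded CD11b- and Gr-1-positive cells 4 days before.

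Over all genes with at least 50 UMIs in the series, those with the highest ratio between cells with at least 3 primary UMIs and all other cells, in order, were Gda, Abca13, Dach1, Sgms2, Ly6c2, Igsf6, Fgd4, Tfec, Chil3 and Csf3r. Gda, guanine deaminase, gave 61 UMIs in such cells and 74 in all others. For the later genes they were Chil3, Lcn2, Abca13, Sgms2, Dach1, Ly6c2, C3, Padi4, Pygl and Gda. Chil3 gave 45 UMIs in such cells and 15 in all others, and Padi4, the enzyme that citrullinates histones in neutrophils, 14 and 66. Gda, Abca13, Dach1, Sgms2, Ly6c2 and Chil3 stood in both lists, whose cells overlap.

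Across the 18 wells, 9791 genes with at least 200 UMIs were ranked by the likeness of their levels to each sum (Pearson r of log2(CPM + 10), members left out). Wells of 1 library share a culture, so r is given as a description. Closest to the primary sum were Spi1 (r = 0.967), Ptger3 (0.964), Sirpa (0.960), Nfam1 (0.947) and Skap2 (0.946). Spi1 stood at 72.3, 32.5 and 15.4 CPM in WT DN1, DN2a and DN2b and at 67.7, 24.7 and 9.32 CPM in ΔTE. Closest to the later sum were Cybb (0.967), Flt3 (0.960), Tgfbi (0.956), Csf1r (0.95) and Sirpa (0.949). Cybb stood at 21.9, 0.995 and 0.366 CPM in WT and at 20.9, 2.22 and 0 CPM in ΔTE.

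The wider lists were also compared between starts, where 0.975% of 10868 genes were at least 2-fold higher and 8.43% lower in WT DN1 than in WT DN2a. Between WT DN1 and WT DN2a, 8 of the 11 genes that accompany primary granules reached 50 UMIs, 1 (Lyz2, log2 2.66) was at least 2-fold higher, none was lower, and the median was -0.23, against -0.15 over all genes. Of the 6 later partner genes that reached it 2 were higher (Cybb, log2 4.46, and Itgam, 2.29) and 3 were lower, among them Hp, haptoglobin (-2.33), and Anxa1 (-1.17). Of 9 transcription factors Spi1 (1.15) and Irf8 (1.26) were higher and Cebpa (-2.08), Cebpd (-1.02) and Klf4 (-1.12) lower, and of 8 receptors 5 were higher (Csf1r, Flt3, Csf3r, Il6ra and Csf2rb) and none lower. In ΔTE 1 of 9 primary partners was higher (Lyz2), 1 of 4 later partners was higher (Cybb, 3.23) and 2 lower (Hp and Anxa1), 2 of 8 transcription factors were higher (Spi1 and Irf8) and none lower, and 4 of 7 receptors were higher. Among markers of other cell types, the stromal list was lower after the DN1 start in 7 of 7 genes and the T-lineage list in 6 of 6 (155 against 526 CPM), while 4 of 6 monocyte or macrophage genes (160 against 83.2 CPM) and 3 of 3 dendritic cell genes (66.3 against 12.6 CPM) were higher. In ΔTE the stromal list was lower in 6 of 6 genes, the T-lineage list in 5 of 6, and 4 of 4 dendritic cell genes were higher, while the monocyte or macrophage sum was 170 against 168 CPM with 3 of 6 genes higher and 1 lower. The part of these cells in the results was not tested. In both genotypes Cybb, Csf1r and Flt3 reached 50 UMIs through the DN1 library, where they were high. Other genes called here may likewise have reached it through 1 library. These counts of genes past 2-fold therefore support nothing by themselves.

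Between the genotypes, several granule genes were lower in ΔTE than in WT after the DN1 start, and the set divided. S100a8 (11.4 against 32.2 CPM; log2 -1.50, -1.93 to -1.10), S100a9 (23.2 against 51.9 CPM; -1.16, -1.46 to -0.86), Elane (3.05 against 9.35 CPM; -1.61, -2.47 to -0.83) and Mpo (97.4 against 161 CPM; -0.72, -0.88 to -0.57) were lower, with every ΔTE well below every WT well. Prtn3 (-0.23, -0.54 to 0.07), Ctsg (-0.18, -0.45 to 0.09), Ngp (-0.12, -0.55 to 0.31) and Ltf (-0.65, -1.49 to 0.16) did not differ beyond counting error, and their wells overlapped. Of the 8 members with at least 50 UMIs in the 2 libraries 3 were at least 2-fold lower, Elane, S100a8 and S100a9, against 0.671% of 10140 genes. Elane reached that minimum through the WT library (56 against 18 UMIs), where it was high, so its place in this count supports nothing by itself. None was at least 2-fold higher (0.256% of genes). With 1 library per genotype, genotype and culture cannot be told apart.

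As sums, the primary granule genes were 165 CPM in ΔTE DN1 against 244 CPM in WT DN1 (log2 -0.57, -0.69 to -0.45) and the later genes 53.6 against 107 CPM (-0.99, -1.19 to -0.80). The odds of a later against a primary UMI were lower in ΔTE by a log2 odds ratio of -0.42 (-0.66 to -0.19). This contrast rested on Mpo, S100a8 and S100a9: without these 3 it was 0.063, and the later sum then differed by -0.25 (-0.62 to 0.13). Within the sets, Ngp made up 15.0% (12.3 to 18) of the later UMIs of WT DN1 and 27.5% (22.7 to 32.8) of those of ΔTE DN1, and Ctsg 16.9% (15.1 to 19.0) and 22.1% (19.6 to 24.9) of the primary UMIs. The odds of a Ctsg against an Mpo UMI were higher in ΔTE after the DN1 (log2 odds ratio 0.54, 0.23 to 0.85) and the DN2a start (0.69, 0.27 to 1.10). After the DN1 start those of Prtn3 against Mpo were higher too (0.49, 0.15 to 0.83), and those of Elane against Mpo were lower (-0.89, -1.76 to -0.08).

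Between the genotypes the DN1 cells were also split by how many UMIs of a set they held. The split used the counts compared, so that a lower level in every cell would by itself move cells out of the upper class, and the values are a description. Primary UMIs in cells with at least 3 were 492 in WT DN1 (82.1 CPM) and 182 in ΔTE DN1 (30.9 CPM; log2 -1.41, -1.66 to -1.16), while those in cells with 1 or 2 were 972 (162 CPM) and 789 (134 CPM; -0.28, -0.42 to -0.14). Of cells, 0.730% to 1.10% per well held at least 3 primary UMIs in WT DN1 and 0.251% to 0.404% in ΔTE DN1. Cells with at least 3 later UMIs numbered 51 in WT DN1 and 22 in ΔTE DN1. The log2 ratio of their share, ΔTE over WT, was -1.13, with a wider interval (-1.92 to -0.38) because cells were counted. Later UMIs in cells with at least 3 were 447 in WT DN1 (74.6 CPM) and 250 in ΔTE DN1 (42.4 CPM; log2 -0.82, -1.04 to -0.59), and those in cells with 1 or 2 were 192 (32.1 CPM) and 66 (11.2 CPM; -1.52, -1.94 to -1.11).

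The other genes of these lists were also compared between the DN1 libraries. None of the 10 primary partners, 7 later partners, 7 transcription factors or 8 receptors with at least 50 UMIs was 2-fold higher or lower. The median log2 ratio was 0.03, -0.60, -0.11 and -0.09 in these lists, beside -0.002 over all genes. Lyz2 (log2 -0.67, -0.92 to -0.41) and Hp (-0.96, -1.45 to -0.49) were lower in ΔTE, and Cybb (-0.07, -0.43 to 0.30), Spi1 (-0.09, -0.30 to 0.10) and Csf1r (0.30, -0.02 to 0.63) did not differ beyond counting error. Among markers of other cell types, the stromal (252 against 438 CPM) and T-lineage sums (100 against 155 CPM) were lower in ΔTE DN1, and the ILC or NK (514 against 366 CPM), mast cell or basophil (514 against 417 CPM) and dendritic cell sums (84.5 against 66.3 CPM) were higher, and their part in the results was not tested.

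After the DN2a start the later sum stood at 3.01 CPM in ΔTE (19 UMIs) and 1.44 CPM in WT (13 UMIs), with a log2 ratio of 1.07 (-0.03 to 2.20) and a log2 odds ratio of later against primary UMIs of 1.11 (0.00 to 2.27). Without the 1 ΔTE cell that held 13 of these UMIs both were below 0, at -0.60 and -0.55. S100a9 (10 against 3 UMIs) was higher in ΔTE (2.25, 0.30 to 4.75), with 8 of its 10 UMIs in 1 cell. Mpo was lower in ΔTE (22.2 against 29.1 CPM; log2 -0.39, -0.70 to -0.09) and Ctsg higher (32.9 against 26.9 CPM; 0.29, 0.02 to 0.57), beside a median of -0.14 over all genes and with overlapping wells for both, and the primary sum was 60.6 against 62.7 CPM (-0.05, -0.24 to 0.14). None of the 3 members with 50 UMIs was 2-fold lower (2.48% of 10940 genes) or higher (0.695%). After the DN2b start Mpo was again lower in ΔTE (5 against 29 UMIs; -1.87, -3.59 to -0.48), and the primary sum did not differ beyond counting error (-0.38, -0.94 to 0.16). The only member with 50 UMIs there, Ctsg, did not pass 2-fold in either direction (1.09% of 8531 genes were higher and 1.64% lower), at 21 against 19.8 CPM (0.09, -0.57 to 0.72).

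**Figure D4:**
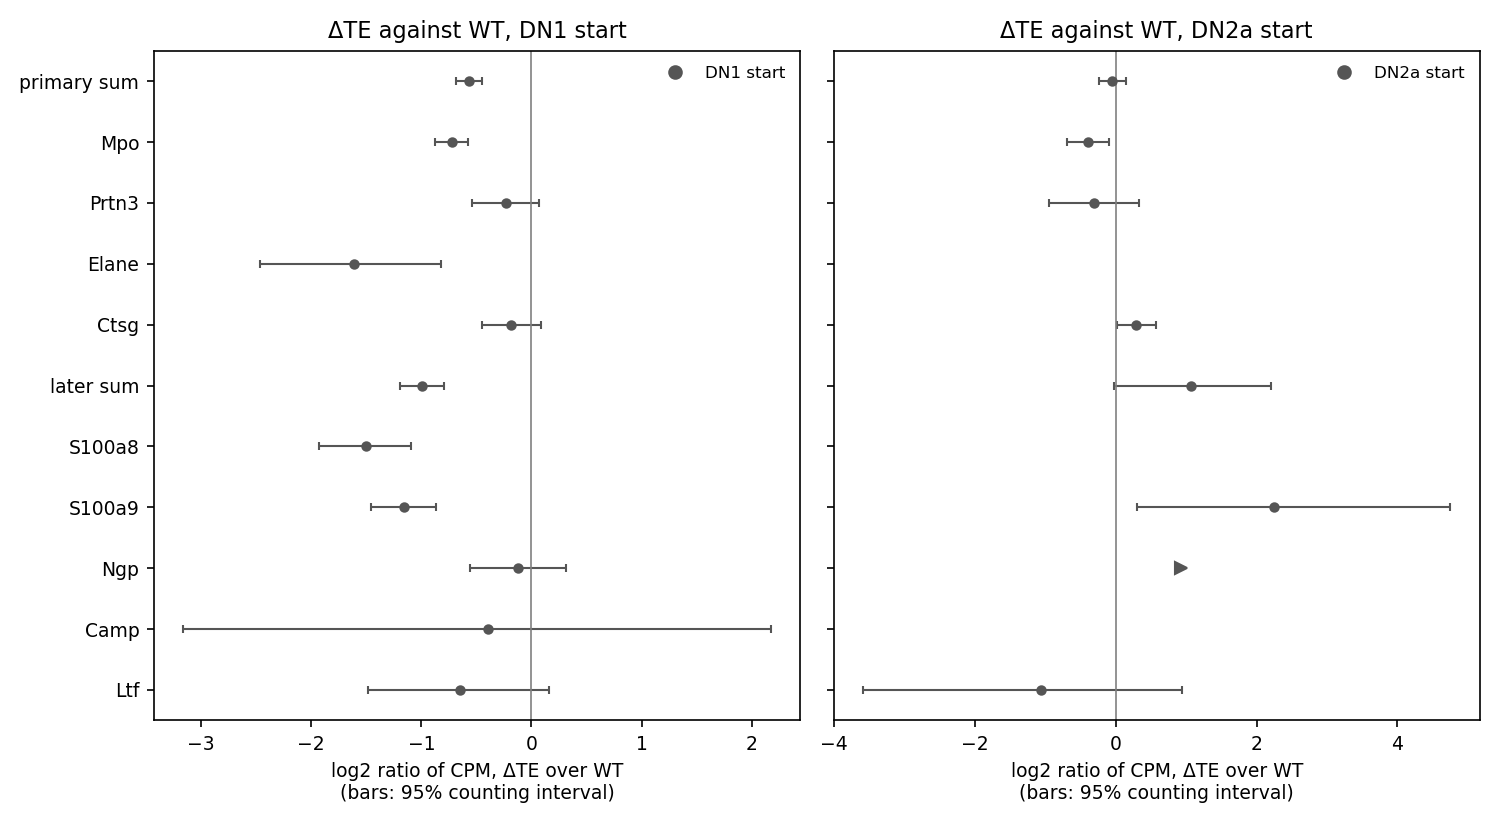
Log2 ratio of CPM, ΔTE over WT, for each gene and both sums after the DN1 (left) and DN2a (right) start. Bars are 95% counting intervals. The triangle is a value with a count of 0 set to 3 UMIs, without an interval, and genes with too few UMIs have no mark. After the DN1 start Elane, S100a8 and S100a9 lie below -1, and Prtn3, Ctsg and Ngp between -0.23 and -0.12.

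The filter on cells bore on the later genes more than on the primary ones. In the WT DN1 library the later sum was 407 CPM (383 to 432) in barcodes with under 200 genes, 3.81-fold its level in kept cells, and 685 CPM in those with under 100 genes. In ΔTE DN1 it was 152 CPM (137 to 169), 2.84-fold its level in kept cells. The primary sum went the other way, at 180 CPM (164 to 197) against 244 CPM in WT DN1 and 132 CPM (118 to 148) against 165 CPM in ΔTE DN1. Of the 171 WT DN1 barcodes with at least 3 later UMIs, 51 were kept and 99 had under 200 genes, with a median of 96 genes; of the 140 with at least 3 primary UMIs, 97 were kept and 18 had under 200 genes. Among the barcodes with under 200 genes the ΔTE to WT log2 ratio after the DN1 start was -1.42 (-1.60 to -1.24) for the later sum, and the DN1 to DN2a log2 ratio in WT was 7.22 (6.44 to 8.13).

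The proportions of the later genes among these small barcodes lay near those in kept cells with at least 3 later UMIs, with overlapping intervals in WT DN1. In WT DN1, S100a9 made up 46.8% (43.8 to 49.8) of the later UMIs of barcodes under 200 genes and 43.8% (39.2 to 48.6) of those of such kept cells, Ngp 18.7% (16.4 to 21.2) and 17.9% (14.5 to 21.8), and S100a8 26.0% (23.4 to 28.7) and 32.2% (27.9 to 36.8). In barcodes above 30% mitochondrial UMIs the later sum was 82.6 CPM in WT DN1 and 20.7 CPM in ΔTE DN1, and the primary sum 110 and 83.5 CPM.

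**Figure D5:**
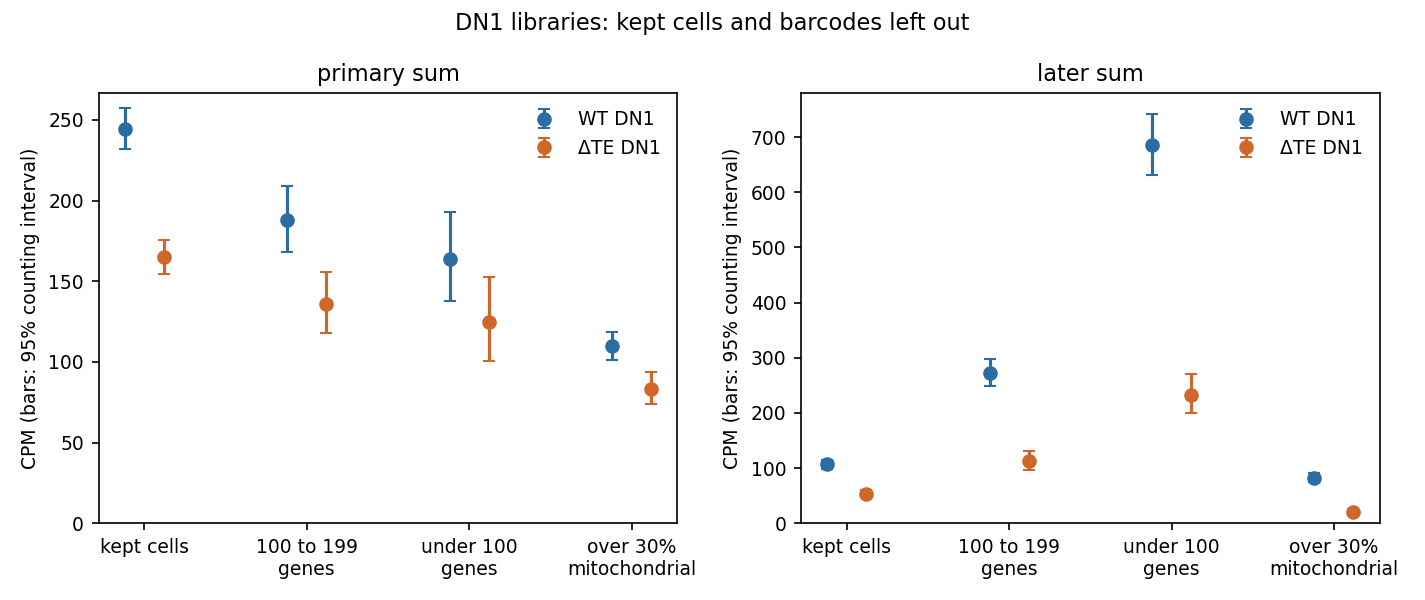
CPM of the primary sum (left) and the later sum (right) in kept cells of the WT and ΔTE DN1 libraries and in barcodes left out by the filters on genes and on mitochondrial UMIs; bars are 95% counting intervals and axes start at 0. The later sum climbs from 107 CPM in kept cells to 685 CPM in barcodes under 100 genes in WT DN1, while the primary sum is highest, at 244 CPM, in kept cells.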

How the data were processed

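The deposited matrices held UMI counts per gene and barcode, which the authors made from sci-RNA-seq3 libraries of nuclei (nuclear RNA per the labels); the processing notes name mm9, and the aligner is not given in the sources used here. The reverse-transcription well was read from the barcode, and the wells of a library were treated as technical. The 9 members, the gene lists and the filters were chosen with earlier results of these data known. Counts of kept cells were summed and scaled to CPM on genes found in at least 15 cells. Intervals were exact Poisson (levels), conditional binomial (ratios), conditional odds ratio and Clopper-Pearson (shares), all at 95% and for counting error only. A count of 0 allows up to 3 UMIs. The genes named were the members, genes of the lists with at least 50 UMIs, the 10 highest in marked cells and the 5 closest over wells. Lists in marked cells were restricted to the DN1 libraries after the data were seen. No doublet caller was run; a limit of 1000 UMIs was tried in its place. Ratios were checked on simulated counts. Python 3.11.15, scipy 1.17.1 and, for TMM factors on the deposited counts, edgeR 4.0.16 were used.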

Additional observations from a re-analysis of the deposited data

Results flagged for a closer look

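S100a9 differed between genotypes in opposite directions at 2 starts: ΔTE over WT gave -1.16 on the log2 scale after the DN1 start and 2.25 after the DN2a start, each with an interval that excludes 0. The difference between the starts was not tested, and the DN2a value rests on 10 against 3 UMIs, of which 8 came from 1 well and as many from 1 cell.

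In barcodes with under 200 genes, which no comparison of kept cells used, the later sum lay above its level in the kept cells of the same library in each of the 6 libraries, and its interval lay wholly above that of the kept cells in WT DN1 (407 CPM), ΔTE DN1 (152 CPM) and WT DN2b (6.85 CPM, 14 UMIs). In WT DN2a (2.73 against 1.44 CPM), ΔTE DN2a (6.56 against 3.01 CPM) and ΔTE DN2b (3.15 against 1.75 CPM) the intervals overlapped.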

How the results depend on the processing

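Every set result whose interval excluded 0 kept its direction under the alternatives, with 1 exception: of 145 values, 122 moved by less than their intervals, 22 moved further and 1 reversed; leaving out 1 well at a time moved 6 of 90. The reversal was the ΔTE over WT log2 odds ratio of later against primary UMIs after the DN1 start, 0.063 without Mpo, S100a8 and S100a9. In that setting the primary sum gave 1.31 (WT DN1 over DN2a), 0.61 (WT DN2a over DN2b), 0.81 and 0.80 (the same in ΔTE), -0.31 (ΔTE over WT, DN1) and 0.19 (DN2a), the later sum 4.50 (WT DN1 over DN2a) and -0.25 (ΔTE over WT, DN1), and the WT DN1 over DN2a odds ratio 3.19. The primary sum of WT DN1 over DN2a was 1.66 with no mitochondrial limit, 2.21 at 20%, and 2.11 both with CPM without mitochondrial genes and with TMM factors. With no mitochondrial limit ΔTE over WT gave -0.25 for the primary sum at DN2a and -0.69 for the odds ratio at DN1; at 20% ΔTE DN1 over DN2a gave 5.28 for the later sum and 3.72 for the odds ratio; with at most 1000 UMIs the later sum of ΔTE over WT at DN1 was -1.22. Without the ΔTE DN2a cell with the most later UMIs (chosen after seeing the data), ΔTE DN1 over DN2a gave 5.82 (later sum) and 4.38 (odds ratio), and ΔTE over WT at DN2a changed sign, from 1.07 to -0.60 (later sum) and from 1.11 to -0.55 (odds ratio), with intervals that already held 0. Thinned to 300 UMIs, 5.60%, 1.67% and 0.929% of WT DN1, DN2a and DN2b cells and 4.17% and 1.61% of ΔTE DN1 and DN2a cells held a primary UMI, and 1.22% and 0.452% of WT and ΔTE DN1 cells a later UMI. Leaving out 1 well, in particular the third of ΔTE DN2a, gave 3.41 to 5.41 for the later sum and 2.09 to 3.92 for the odds ratio of ΔTE DN1 over DN2a, -0.19 to 1.81 and -0.10 to 1.74 for ΔTE over WT at DN2a, again with a change of sign, and 1.00 to 1.80 for the primary sum of ΔTE DN2a over DN2b. The causes were not tested. No paired analysis was possible because each condition was 1 library. Counts of 19 UMIs or fewer per library outside the DN1 libraries limit the later genes there.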

Other observations

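Non-stromal cells with any T-lineage marker UMI and no progenitor marker UMI numbered 358 in ΔTE DN1. Of these, 8 held 50 later UMIs, so that the 358 cells stood at 220 CPM against 53.6 CPM over all kept cells. In WT DN1 8 of 506 such cells held 9 later UMIs (30.2 CPM). In the 6 libraries, barcodes above 2000 UMIs held the primary sum at 162 CPM in WT DN1 (80 barcodes) and 101 CPM in ΔTE DN1 (92 barcodes).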
